A study of Mus musculus with 8 samples.

Results

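Platelet RNA was examined for 5 mouse loci grouped as loci at or like ribosomal RNA genes, namely AY036118, Gm42418, Lars2, Gm26917 and Gm15564, out of 43548 genes in the deposited table. In the sequences used here an overlap was shown for AY036118 and Gm42418, Gm26917 was found next to an 18S copy without overlap, and the overlap of Lars2 and Gm15564 with 28S RNA was not measured. AY036118 was picked by its share of the summed expression value in these same libraries, so its high level is a description and was not tested. The symbol rule found 4 of the 5 loci. Gm42418 was found by its gene identifier, because the table lists that identifier under the symbol Yam1. The libraries came from washed platelets of 4 TNFdARE mice, which carry a germline deletion of the AU-rich elements of Tnf, and of 4 littermate controls without the deletion. The authors describe constitutively elevated TNF-α in TNFdARE mice. They also describe arthritis and inflammatory bowel disease in them, from an age below 8 weeks. Both groups were on a C57BL/6J background, received no treatment (baseline), were 8 to 12 weeks old and held 2 females and 2 males each, and all 8 libraries carry 1 batch label. The labels also hold a text on 3 mice per group and one on mice of 5.2 months, which do not match the RNA samples as listed. Values were read as FPKM, which are fragments per length of transcript and per mapped fragment of a library, and the number of reads behind them is unknown.

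Ribosomal RNA is transcribed by RNA polymerase I from repeated genes as 1 long precursor that holds the 18S RNA of the small ribosomal subunit and the 5.8S and 28S RNAs of the large subunit, separated and preceded by spacers that are cut away. It is by far the most abundant RNA of most cells, and library protocols usually remove it or select against it. Platelets have no nucleus and make no new ribosomes, and the ribosomal RNA they hold was made by megakaryocytes. Parts of the ribosomal RNA repeat have been annotated as separate noncoding genes in the mouse genome, and fragments of the repeat have also become part of the sequence of other genes.

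The annotation of build mm10 (GENCODE M21) showed how 3 of the loci are placed at 1 ribosomal RNA copy. The 18S copy is 1849 bases long and lies at chr17:39846353-39848201. The annotation gives this model on the minus strand, the strand of AY036118, but the letters that end 18S RNA, GGATCATTA, stand at its end on the plus strand. The plus strand was therefore read here as the strand of the ribosomal RNA, against the annotated strand, and every direction relative to 18S RNA rests on this reading. Gm42418, a long noncoding RNA of 1 exon and 1831 bases, lies at chr17:39846958-39848788 on the plus strand. Its first 1244 bases are identical to the end of 18S RNA, and its last 587 bases lie in the spacer that follows. AY036118, a long noncoding RNA of 923 bases and 1 exon in this annotation, lies at chr17:39847113-39848035 on the minus strand. All of its 923 bases lie within the annotated 18S model, on the same annotated strand, and are complementary to 18S RNA as read here, and all of them lie within Gm42418 on the opposite strand. Gm26917, a long noncoding RNA with a longest transcript of 3329 bases, lies at chr17:39843013-39846341 on the plus strand and ends 11 bases before the 18S copy, in the spacer that precedes it, without overlap.

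**Figure D1:**
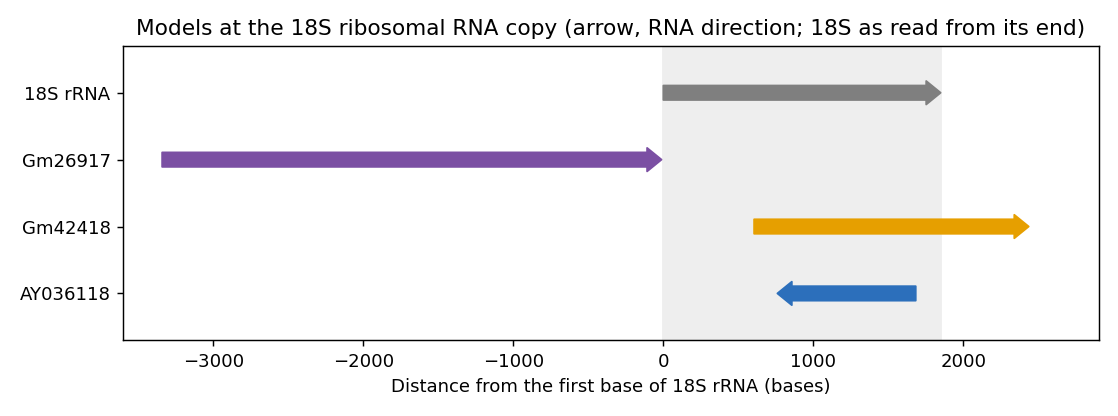
Position of the annotated models at the 18S ribosomal RNA copy, as distance in bases from the first base of 18S RNA (x axis), with 1 arrow per model pointing along the RNA. The 18S arrow follows the plus strand, read from the letters at its end, whereas the annotation gives this model on the minus strand; Gm42418 shares 1244 bases with it, AY036118 lies wholly within it and points against the arrow, and Gm26917 ends 11 bases before it.

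The stretches below show the overlap in letters. In Gm42418 (chr17:39848172-39848231, plus strand) capitals mark 18S RNA, which ends with the letters GGATCATTA, and lower case marks the spacer. The first 60 bases of AY036118 (chr17:39847976-39848035, minus strand) and the same bases read from Gm42418 are given in capitals because each is the complement of the other. The last 60 bases of Gm26917 (chr17:39846282-39846341, plus strand) are all spacer.
Gm42418 across the 18S end: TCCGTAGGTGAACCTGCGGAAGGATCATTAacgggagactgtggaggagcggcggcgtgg
AY036118 start: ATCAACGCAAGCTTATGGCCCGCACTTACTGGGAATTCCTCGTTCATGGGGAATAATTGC
Gm42418 opposite strand: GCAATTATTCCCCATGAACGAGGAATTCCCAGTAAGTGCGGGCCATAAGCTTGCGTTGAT
Gm26917 end: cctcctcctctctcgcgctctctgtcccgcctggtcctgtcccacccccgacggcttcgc

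Among all 141767 transcripts of the annotation, the 9 letters GGATCATTA, searched on both strands, were held by 0.653%, so they are not unique to an 18S end. The identity of Gm42418 with the 18S model follows from their shared position and does not show which strand is ribosomal. The reading of the strand rests on the 9 letters. At 90% identity over at least 50 bases, no gene other than the 18S model itself, Gm42418 and AY036118 matched the 18S transcript. No row of the table was matched to the 18S model. The table gives AY036118 under an identifier that this annotation does not hold, and the identifier the annotation gives to AY036118 is not in the table. The position and length above are therefore those of the model with the same symbol, and the model behind the deposited value of AY036118 is not known here. The preparation of the libraries gives no strand in the sources used here, so that fragments from the bases shared by AY036118, Gm42418 and 18S RNA could not be told apart. The last 587 bases of Gm42418 are not shared with AY036118 or the 18S transcript, but the single value per gene does not separate them. A second transcript of the gene that holds the 18S model matches bases 1146 to 1831 of Gm42418 at 98.4%, in the opposite orientation.

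The other 2 loci lie elsewhere. Lars2, which encodes the leucyl-tRNA synthetase of mitochondria, lies at chr9:123366927-123462666 on the plus strand, and its longest transcript has 3894 bases, of which the last 986 are 3′ UTR. Gm15564, an antisense noncoding RNA with 3 annotated transcripts, lies at chr16:35966752-35983230 on the minus strand. A stretch of 72 bases in the Lars2 3′ UTR was 98.6% identical to a Gm15564 transcript, with 1 mismatch. The 29 bases around it are printed from chr9:123462086-123462114 for Lars2 and chr16:35981730-35981758 for Gm15564, with the mismatch, A15T, in capitals. Its position is counted from the 5′ end of the printed bases, with the Lars2 base first.
Lars2 shared stretch: gaacgtgagctgggAttagaccgtcgtga
Gm15564 shared stretch: gaacgtgagctgggTttagaccgtcgtga
The Lars2 3′ UTR also holds, 47 bases after the shared stretch, the letters of the sarcin-ricin loop, a highly conserved part of large-subunit ribosomal RNA (chr9:123462161-123462187, plus strand, loop in capitals).
Lars2 loop stretch: tcctgcTCAGTACGAGAGGAAccgcag

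The 9 letters GTACGAGAG at the middle of this loop were held, on either strand, by 0.281% of the 141767 transcripts. The 15 letters in capitals, TCAGTACGAGAGGAA, were held by 2 transcripts, both of Lars2, and by the transcripts of 0 other genes on either strand. The 28S sequence itself was not used here, so the length of Lars2 and Gm15564 that matches it was not measured, and a match of letters does not show where a fragment came from.

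AY036118 was the highest of all genes in each of the 8 libraries. Control mice 1 to 4 had 24926, 35015, 21576 and 15497 FPKM, against 67351, 24549, 18955 and 37714 FPKM for TNFdARE mice 1 to 4. TNFdARE mice 1 and 4 were above all controls, while TNFdARE mice 2 and 3 lay within the control range. Its share of the summed FPKM came to 42.8%, 51.8%, 37.1% and 33.7% for control mice 1 to 4. In TNFdARE mice 1 to 4 the share was 67.7%, 43.6%, 37.0% and 47.5%. On this scale only TNFdARE mouse 1 was above the highest control.

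Gm42418, which carries 18S sequence on the ribosomal RNA strand, was the 3rd to 14th highest gene of a library. Control mice 1 to 4 had 719, 1027, 576 and 336 FPKM, against 2713, 660, 492 and 994 FPKM for TNFdARE mice 1 to 4. The order of the mice was close to that of AY036118, with control mouse 4 lowest and TNFdARE mouse 1 highest for both. Its share of the summed FPKM ranged from 0.729% in control mouse 4 to 2.73% in TNFdARE mouse 1.

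Lars2 was far lower, and was the 134th to 1157th highest gene of a library. Control mice 1 to 4 had 4.60, 7.95, 6.93 and 1.69 FPKM, against 34.0, 7.94, 5.31 and 9.81 FPKM for TNFdARE mice 1 to 4. TNFdARE mouse 1 stood apart from the other 7 mice, and control mouse 4 was again lowest. The share of Lars2 in the summed FPKM ranged from 0.00366% to 0.0342%. Gm26917 and Gm15564 were listed at 0 in all 8 libraries. In this table a listed 0 does not show that an RNA was absent, since genes that nearly all cells use have the same entry, namely Gapdh for 5 mice, Ppia for 6 and Hprt for all 8.

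**Figure D2:**
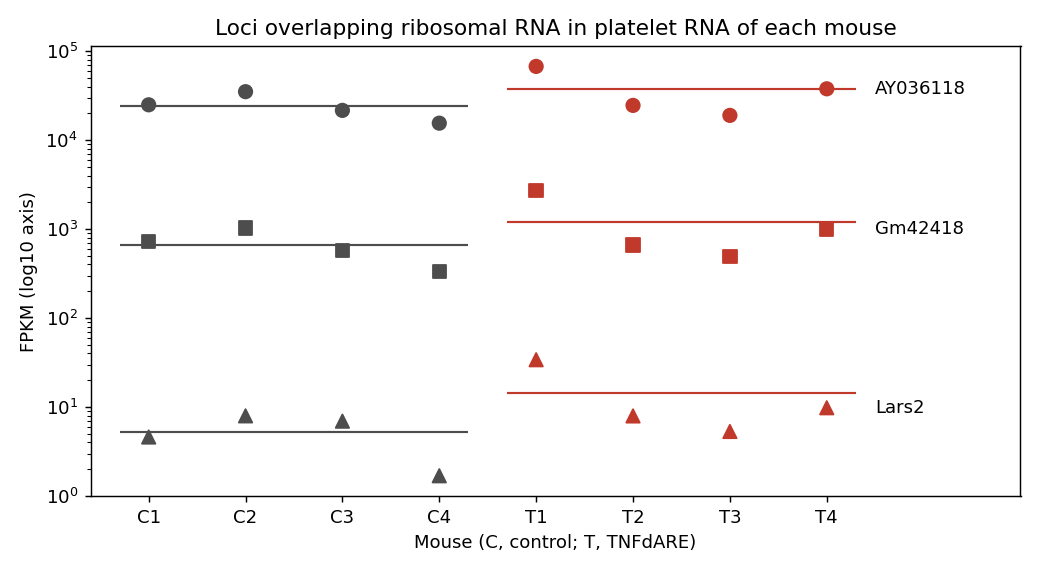
FPKM on a log10 axis (y axis) of AY036118 (circles), Gm42418 (squares) and Lars2 (triangles) in each mouse (x axis; C, control; T, TNFdARE), with lines at the group means. TNFdARE mouse 1 is highest and control mouse 4 lowest for each of the 3 genes, and Gm26917 and Gm15564, listed at 0, are not drawn.

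The ranges of the 3 detected loci over the 8 mice did not overlap, with AY036118 at 15497 or above, Gm42418 between 336 and 2713 and Lars2 at 34.0 or below. The levels are per length of a model, and the model used for AY036118 is not known. AY036118 was 3.76 to 23.6 times as high as the next gene of the same library. That next gene was Gm26602 in 6 libraries and the hemoglobin gene Hba-a2 in TNFdARE mice 1 and 4. Gm26602 held 6.19% of the summed FPKM on average and Gm20721, the other leading gene outside the 5 loci, 3.95%, so that AY036118, at 45.1% on average, stood well outside the range of all other genes. In the annotation Gm26602 (chr10:79910856-79911140, plus strand) lies within R3hdm4 and Gm20721 (chr2:174330319-174346712, minus strand) within Gnas, each on the opposite strand. Opposite partners were not examined for Hba-a2 or for models at large. The Gm26602 transcript is complementary to one of R3hdm4 over 284 bases at 100% identity, and the Gm20721 transcript to one of Gnas over 1486 aligned bases at 99.3%. R3hdm4 averaged 18.4 FPKM beside 3701 for Gm26602, and Gnas 98.5 FPKM beside 2308 for Gm20721.

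The 5 loci together held 44.0%, 53.3%, 38.1% and 34.4% of the summed FPKM for control mice 1 to 4, against 70.5%, 44.8%, 38.0% and 48.8% for TNFdARE mice 1 to 4. Their sum varied 4.43-fold over the 8 mice, from 15834 to 70098 FPKM, whereas the sum of all other genes varied 1.38-fold, from 29372 to 40607 FPKM. The library total thus followed AY036118, with the highest total, 99470 FPKM, in TNFdARE mouse 1 and the lowest, 46047 FPKM, in control mouse 4. With FPKM multiplied by annotated transcript length, AY036118 still held 20.1% to 33.6% of the sum in the controls and 22.3% to 50.8% in TNFdARE mice. This sum covers the genes of the table with an annotated length, and weighs a gene by its fragments only if the values are FPKM. These shares assume the 923-base model. They are not shares of all mapped fragments of a library, whose number is unknown.

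**Figure D3:**
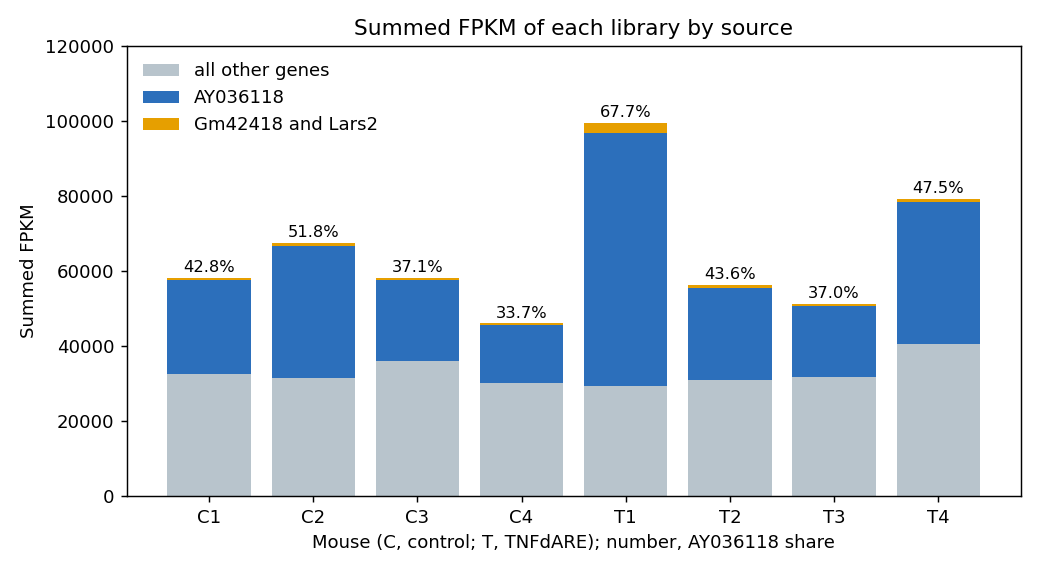
Summed FPKM (y axis) of each library (x axis; C, control; T, TNFdARE), split into AY036118, Gm42418 with Lars2, and all other genes, with the AY036118 share printed above each bar. The part from all other genes stays between 29372 and 40607 FPKM while AY036118 ranges from 15497 to 67351 FPKM.

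The first comparison asked whether the loci differed between TNFdARE and control platelets. No difference was found that exceeded the spread between mice. The AY036118 share was 49.0% ± 13.2 (SD, n = 4) in TNFdARE mice and 41.3% ± 7.92 (SD, n = 4) in controls, a difference of 7.64 percentage points (two-sided exact permutation test, p = 0.43). The combined share was 50.5% ± 14.0 against 42.5% ± 8.26 (SD, n = 4 each, exact permutation p = 0.43). The share of Lars2 was above the highest control in 3 of 4 TNFdARE mice (exact permutation p = 0.11, and 0.44 after Benjamini-Hochberg adjustment over the 4 share tests run). The smallest p this design allows is 0.029. Without TNFdARE mouse 1 the difference in the AY036118 share was 1.39 percentage points.

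In the limma fit over the 1534 genes whose mean FPKM reached 1, all 3 detected loci had a higher mean in TNFdARE mice on log2(FPKM + 1), and none passed the test. The log2 difference was 0.50 (SE 0.35) for AY036118, 0.65 (SE 0.50) for Gm42418 and 1.08 (SE 0.69) for Lars2, each with an adjusted p of 0.86 by limma. The unadjusted limma p was 0.172, 0.215 and 0.143 in the same order. The two-sided exact permutation p was 0.37, 0.43 and 0.17. Without TNFdARE mouse 1 the differences were 0.16, 0.16 and 0.57. Over all genes tested the median log2 difference was −0.30 and 36.9% of genes were above 0. Of these genes 0, or 0%, were called by limma at an adjusted p under 0.05, while 69, or 4.5%, passed 0.05 before adjustment (27 higher and 42 lower in TNFdARE mice). The direction of this split was not the same in all settings. It was 34 higher and 25 lower under quantile normalization, 35 higher and 28 lower with TNFdARE mouse 1 left out, and 26 higher and 21 lower with TNFdARE mouse 4 left out. In every other setting more genes were lower, such as 12 higher and 37 lower with control mouse 1 left out. The median log2 difference was −0.16 without TNFdARE mouse 1 and 0.009 with no filter on low values. The groups overlapped for each of the 3 loci, and 3.32% of all genes tested had groups that did not overlap. Because platelets were sequenced in bulk, more platelets or cells that hold a given RNA and more of that RNA per cell cannot be told apart.

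Markers of other cells were read beside this comparison. All 16 platelet and megakaryocyte markers were detected, 15 of them in every library, with a summed level of 1303 to 1853 FPKM in controls and 1377 to 1419 FPKM in TNFdARE mice, which is the cell type of the label. The 8 erythroid markers in the table, of 10 listed, summed to 748 to 2196 FPKM in controls and to 6912, 1105, 2927 and 14640 FPKM in TNFdARE mice 1 to 4. Of these 8 markers 5 were above 0 in every library, and Klf1 was listed at 0 in all. The 5 that were tested were each higher in TNFdARE mice at an unadjusted p under 0.05 by limma, beside 4.5% of all genes tested in either direction. Their median log2 difference was 2.01, against −0.3 for all genes tested, and none passed after adjustment (limma adjusted p of at least 0.86 for all genes). The 2 mice with the highest erythroid sums, TNFdARE mice 1 and 4, were also the 2 with the highest AY036118 level. The other mice did not follow this order, since TNFdARE mouse 3 and control mouse 3, next with 2927 and 2196 FPKM of erythroid markers, had 18955 and 21576 FPKM of AY036118, while control mouse 2, with 853 FPKM, had 35015 FPKM. With the erythroid markers left out of the sum, the AY036118 share differed by 11.5 percentage points between genotypes (exact permutation p = 0.20, n = 4 each). The part of erythroid RNA in the level of the loci was not tested. Markers of B cells and T cells summed to at most 2.09 and 1.02 FPKM in any library, and 4 of 5 and 3 of 6 of them were listed at 0 throughout. Neutrophil markers were at 0 in the controls and reached 10.3 FPKM in 1 mouse, TNFdARE mouse 4, and of the monocyte and macrophage markers Lyz2 was detected in all libraries, with sums of 12.0 to 50.3 FPKM.

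The loci were then compared with each other across the 8 mice. As a description, the log2(FPKM + 1) values of AY036118 correlated with those of Gm42418 (r = 0.99) and of Lars2 (r = 0.93), and those of Gm42418 with those of Lars2 (r = 0.94). Among the other 1533 genes that reached this mean FPKM, Gm42418 was 1st and Lars2 3rd in likeness to AY036118. The 3 genes outside the loci that were most like AY036118 were Pink1 (r = 0.93), the kinase that marks damaged mitochondria, Tgfb1 (r = 0.88), a growth factor stored in platelet granules, and Ddx19a (r = 0.88), an RNA helicase. The median r of all genes was −0.29, and 69.6% of genes were below 0. These values share library and depth, and each rests on 8 points. In the annotation AY036118 lies wholly within Gm42418, and fragments from the shared bases could not be told apart. The r of 0.99 and the 1st place of Gm42418 are therefore not read as a likeness of separate measurements. TNFdARE mouse 1 was highest for Pink1, Tgfb1 and Ddx19a as well. Pink1 was at 15.3 FPKM in that mouse and 3.18 to 8.74 FPKM in the others, and Tgfb1 at 96.3 against 21.4 to 32.6 FPKM. Ddx19a was at 6.06 FPKM in that mouse and was listed at 0 in control mice 1, 3 and 4.

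The ratio of Gm42418 to AY036118, whose annotated models share bases, lay between 2.17% and 2.93% in 7 of the 8 mice. It came to 2.89%, 2.93%, 2.67% and 2.17% for control mice 1 to 4, against 4.03%, 2.69%, 2.60% and 2.64% for TNFdARE mice 1 to 4, with TNFdARE mouse 1 above all others. The group means were 2.66% ± 0.351 in controls and 2.99% ± 0.694 in TNFdARE mice (SD, n = 4 each, exact permutation p = 0.57). The ratio of Lars2 to AY036118 varied more, from 0.0109% in control mouse 4 to 0.0505% in TNFdARE mouse 1. Its means were 0.0210% ± 0.00886 in controls and 0.0342% ± 0.0112 in TNFdARE mice (SD, n = 4 each, exact permutation p = 0.11).

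**Figure D4:**
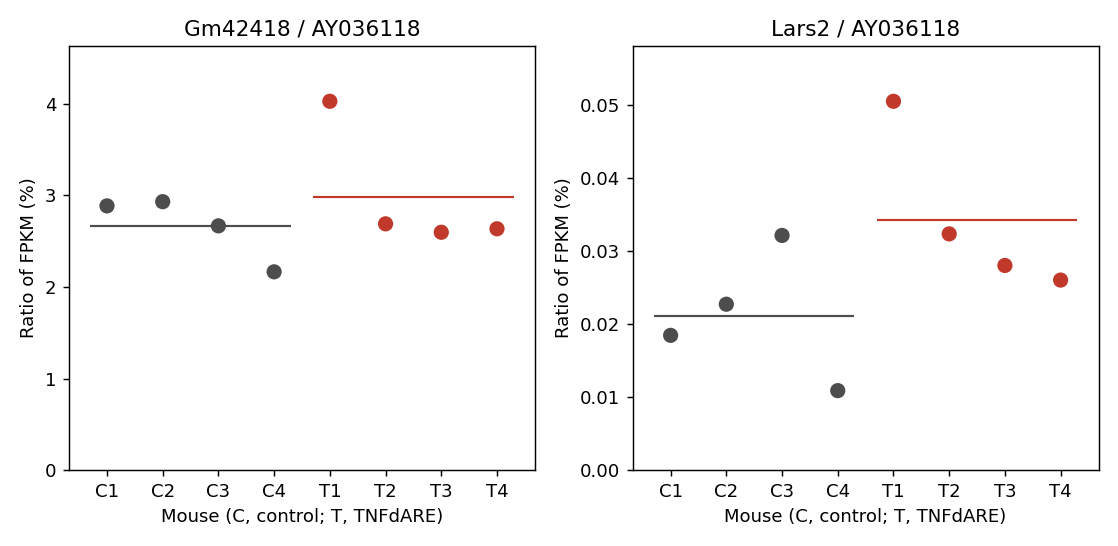
FPKM of Gm42418 (left) and Lars2 (right) as a percent of AY036118 FPKM (y axes) in each mouse (x axis; C, control; T, TNFdARE), with lines at the group means. The Gm42418 ratio lies between 2.17% and 2.93% in all mice but TNFdARE mouse 1, where it is 4.03%.

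The second comparison asked how the share of these loci went with the number of genes above 0 in the same library. Fewer genes were above 0 in libraries with a higher AY036118 share, but the relation did not pass the test on the scale chosen for it. Control mice 1 to 4 had 1479, 2196, 2302 and 2742 genes above 0, against 818, 3187, 4917 and 1225 for TNFdARE mice 1 to 4. The mouse with the highest share, TNFdARE mouse 1, had the fewest genes, and TNFdARE mouse 3, with the most genes, had a lower share than all other mice but control mouse 4. Over the 8 mice Pearson's r was −0.63 (exact permutation p = 0.10) and Spearman's rho −0.71 (exact permutation p = 0.058). After adjustment over the 4 relations computed, these p-values were 0.19 and 0.077 (Benjamini-Hochberg, exact permutation). Without the 2 mice farthest from the median share, control mouse 4 and TNFdARE mouse 1, r was −0.54 over 6 mice (exact permutation p = 0.27). The relation was closer when genes of at least 1 FPKM were counted (r = −0.80, exact permutation p = 0.022, n = 8) or when the number of genes was put on a log10 scale (r = −0.75, exact permutation p = 0.028, n = 8). With both measures centred within genotype r was −0.75 (exact permutation within genotype, p = 0.078, n = 8).

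For Gm42418 the relation to the number of genes had r = −0.59 and rho = −0.81 (exact permutation p = 0.14 and 0.022, 0.19 and 0.077 adjusted, n = 8). For Lars2 it had r = −0.44 and rho = −0.38 (exact permutation p = 0.23 and 0.36, both the same after adjustment, n = 8), and r was 0.105 without control mouse 4 and TNFdARE mouse 1. For the combined share it had r = −0.63 and rho = −0.71, as for AY036118 alone. The AY036118 share showed no such relation to the summed FPKM of all other genes (r = −0.18, exact permutation p = 0.63, n = 8). Share and number of genes come from the same library, and the part of sequencing depth in both was not tested because depth is unknown.

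**Figure D5:**
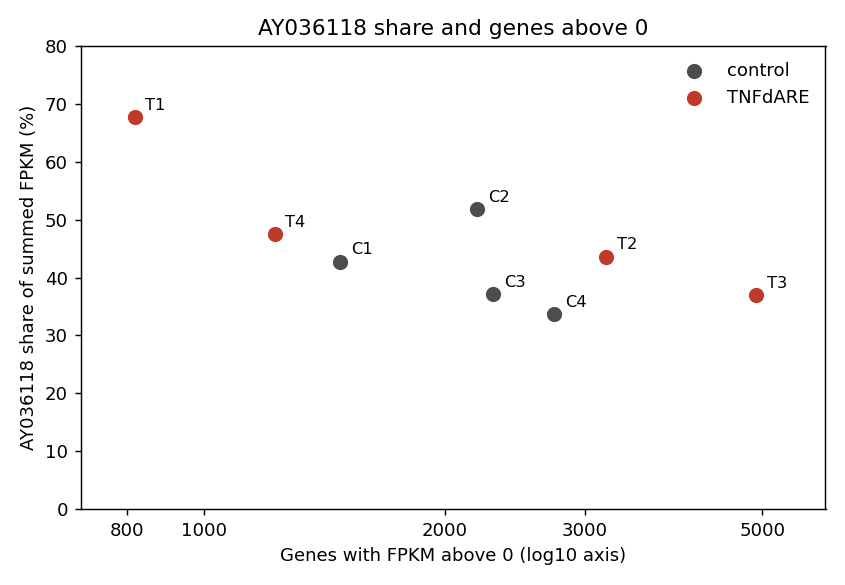
Share of AY036118 in the summed FPKM (y axis, percent) against the number of genes with FPKM above 0 on a log10 axis (x axis), with 1 point per mouse (C, control; T, TNFdARE). The share falls from 67.7% at 818 genes to between 33.7% and 43.6% in the 3 mice with 2742 genes or more, and control mouse 2 lies above the other mice with a like number of genes.

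Genes of ribosomal RNA metabolism and related RNAs were read in the same libraries. Of all 43548 genes, 84.9% were listed at 0 in every library and 409, or 0.939%, were above 0 in all 8, so a list with most genes at 0 and few or none in all 8 is near the table as a whole, and nothing particular to a list is read from these counts. Of the 21 structural RNAs listed, 14 were in the table, and all 14 were listed at 0 in every library, among them the mitochondrial ribosomal RNAs mt-Rnr1 and mt-Rnr2 and the 5S gene n-R5s1. All 180 entries for 5S genes were also at 0. AY036118 and Gm42418 were thus high in libraries in which these 14 structural RNAs were at 0. Of 6 long noncoding RNAs that mark nuclei, Malat1 and Xist were among 5 at 0 throughout. Neat1, a scaffold of nuclear bodies, was above 0 in 7 libraries, at 3.41, 0, 4.00 and 1.67 FPKM in control mice 1 to 4 against 3.34, 1.17, 1.86 and 5.58 FPKM in TNFdARE mice 1 to 4, and the groups overlapped (limma adjusted p = 0.90).

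Of 48 genes of RNA polymerase I and ribosomal RNA processing, 47 were in the table, 36 (76.6%, beside 84.9% of all genes) were at 0 in all libraries, and 0 were above 0 in all 8. The highest on average was Polr2e, a subunit shared by the 3 nuclear RNA polymerases, at 2.57 to 5.14 FPKM in controls and at 0, 5.60, 3.21 and 0 FPKM in TNFdARE mice 1 to 4, and it was the only gene of the list that was tested (limma adjusted p = 0.86). Nhp2, a protein of small nucleolar particles, was above 0 in control mouse 3 alone, and Ubtf, an activator of RNA polymerase I, in control mouse 2 and TNFdARE mouse 3.

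Lars2 was set beside the other enzymes that load amino acids on tRNA. Of the 22 mitochondrial synthetase genes, Lars2 was the only one above 0 in all 8 libraries, and 16 (72.7%, beside 84.9% of all genes) were at 0 throughout. Iars2, the mitochondrial isoleucine enzyme, was next, with 4 libraries above 0 and at most 2.61 FPKM, and Kars, the lysine enzyme of both compartments, was above 0 in 1 library. Of the 19 cytosolic synthetase genes 18 were in the table, 9 of these 18 (beside 84.9% of all genes) were at 0 throughout and 0 were above 0 in all 8, beside 0.939% of all genes. Yars reached 17.5 FPKM in TNFdARE mouse 4 alone, Farsb 4.80 FPKM in control mouse 3 alone, and Nars was above 0 in 4 libraries. Lars, the cytosolic partner of Lars2, was listed at 0 in all 8.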

How the data were processed

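Platelet RNA of 4 TNFdARE and 4 control mice was analysed. The authors sequenced 150 bp reads and, per the labels, used Cufflinks with build mm10; versions, annotation, strand and the handling of reads with several matches are not given in the sources used here. Each gene and mouse has 1 value deposited by the authors, read as FPKM because of Cufflinks and because columns sum to different totals. Depth is unknown and no interval was given. Columns were matched to mice by library name, with 0 left unmapped. The p-values of the genotype comparisons set a difference against the spread between mice. Those of the correlations come from re-pairing the values of the mice.

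Shares were taken of the summed FPKM. Genotypes were compared with limma 3.58.1 in R 4.3.3 on log2(FPKM + 1) for genes whose mean FPKM reached 1 (trend, Benjamini-Hochberg over all genes tested), tested on simulated data, and with two-sided exact permutation tests over 70 assignments. Correlations used all 40320 pairings. Sequences and positions came from GENCODE M21 (build mm10), which held 42384 of the 43548 identifiers, and similarity from BLAST 2.17.0. Hprt, Ppia and Gapdh were also read after their values were known. The loci, lists and rules were chosen with earlier results of these data known. Named genes are the loci, the 3 other genes with the highest share, the 3 most like AY036118, the 3 highest of each list, and Lars; R3hdm4, Gnas and genes of the marker lists were added after their values were seen. Alternatives were other pseudocounts, filters, scalings, covariates, transcript length and leaving out mice. Replicate numbers are mouse numbers and do not pair the mice. Figures used matplotlib 3.10.9.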

Additional observations from a re-analysis of the deposited data

Results flagged for a closer look

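In 42 groups of 4 mice examined, 11 had a mouse whose gap to the nearest other mouse was a larger part of the group's range than chance gives in about 1 of 20 groups. The count cannot be set against that rate, because a gene above 0 in only 1 mouse of a group is flagged by construction. TNFdARE mouse 1 stood apart from the other TNFdARE mice in Lars2 (34.0 FPKM, with a share of 0.0342%), in the Gm42418 share (2.73%) and in Gm42418 as a percent of AY036118 (4.03%). These 4 values come from 1 library and overlapping quantities. Control mouse 3 stood apart in Hba-a2, at 758 FPKM. The remaining cases are genes listed at 0 in the other mice of the group: Nhp2 at 6.54 FPKM and Farsb at 4.80 FPKM in control mouse 3, Ubtf at 3.25 FPKM in control mouse 2 and at 0.138 FPKM in TNFdARE mouse 3, Kars at 3.34 FPKM in control mouse 1 and Yars at 17.5 FPKM in TNFdARE mouse 4.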

How the results depend on the processing

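The difference in each locus stayed short of the threshold on the adjusted p by limma in all 18 alternatives for AY036118, Gm42418 and Lars2. Before adjustment, AY036118 had a limma p of 0.0326 without TNFdARE mouse 3 (0.785 adjusted). Each difference kept its direction, except that quantile normalization set AY036118 to 0.00, as it must for the highest gene of every library. The AY036118 share and the combined share kept their direction, with an exact p above 0.05, in all 12 alternatives each. No alternative was run for the shares of Gm42418 and Lars2. Leaving out 1 mouse at a time gave a difference in the AY036118 share of 1.39 to 11.6 percentage points and in the combined share of 1.40 to 12.2, lowest without TNFdARE mouse 1 and highest without TNFdARE mouse 3. It gave log2 differences of 0.16 to 0.77 for AY036118, 0.16 to 0.98 for Gm42418 and 0.57 to 1.39 for Lars2, and r for the AY036118 share and the number of genes of −0.68 to −0.48. With a replicate block, which only joins equal mouse numbers, the AY036118 share differed by 7.64 points (exact sign-flip p = 0.50 over 16 assignments) and 64 genes had an unadjusted p under 0.05, and same-numbered mice correlated at −0.067 to 0.060. The number of genes at an unadjusted p under 0.05 was 36 with a mean FPKM of at least 5, where fewer genes, 583, were tested, and 46 to 76 without 1 mouse, and 0 genes passed at an adjusted p under 0.05 by limma in any setting. The relation to the number of genes passed the test with genes of at least 1 FPKM (r = −0.797) and on the log10 scale (r = −0.754); the cause was not tested. Quantile normalization moved the median log2 difference of all genes from −0.30 to −0.06. Alternatives with the number of genes as a covariate, erythroid markers left out, AY036118 FPKM for its share, the sum of other genes, and symbols alone were chosen after seeing the data. Depth is unknown and limits every value near 0.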
